A study of Mus musculus with 60 samples.

Results

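The 9 genes described here, Neu1, Glb1, Hexa, Manba, Naglu, Arsb, Galns, Aga and Asah1, encode enzymes that take apart glycans and glycolipids in the lysosome. They were chosen by gene name, and each was matched through its RefSeq identifier to exactly 1 probe set, so 9 of the 963 named probe sets (9 of 909 named genes) on the array carry them. Total RNA was hybridised to a custom Affymetrix design for genes of glycan biology, 60 arrays in all from 18 mice. A value is a log2 expression level of a probe set, in which a difference of 1 stands for a doubling of signal, and levels are compared only within a gene. In the first line, St6galnac2 -/- mice (KO) and +/+ mice (WT) gave thyroid, lymph node and brain from 3 animals each (with 4 brain arrays for WT), and intestine from 2 KO and 3 WT animals. In the second line, double knockout mice (B4GALNT1 -/- and B4GALNT2 -/-, DKO) and +/+ mice (WT) gave thymus from 5 and 3 animals, testes from 3 and 3, mammary gland from 5 and 2, and kidney from 5 and 4. Brain and small intestine of 3 further wild-type C57 mice served as outside controls. Both sexes are present in the 2 lines, except in testes and among the WT thymus animals, which are all male; mammary gland was taken from males too. All animals are labelled healthy, and neither age nor the construction of the alleles is given in the labels. The expression values served the submitters as a guide to which organs of these mice merited glycan measurements.

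Lysosomal glycan breakdown is stepwise: exoglycosidases and sulfatases each remove 1 kind of end group, and loss of a single enzyme leaves its substrate stored in the lysosome. The enzymes are made on the secretory route, most are tagged with mannose 6-phosphate, and receptors carry them to the lysosome. Many of their genes hold in their promoters a site for TFEB, a transcription factor known as a regulator of lysosomal genes. The core of that site, TCACGTG read on either strand, was looked for in RefSeq promoter sequences (GRCm38.p6, from 250 bases before to 50 after each gene's start), which were at hand for 6 of the 9 genes: Neu1, Glb1, Manba, Arsb, Naglu and Hexa. It lay in 2 of these 6, Glb1 and Naglu, in 5 of 14 other lysosomal degradation genes (Arsa, Ctsa, Gaa, Gla and Sgsh) and in 3.77% of all 32851 promoters. The shorter CACGTG, which every TCACGTG contains, lay in the same 2 of 6 and in 7.15% of all promoters. The 2 promoters with the core are printed, and that of Neu1, the gene with the highest kidney difference, beside them for comparison. Among the genes called higher in kidney, Glb1 and Naglu hold the core, while Neu1, Manba and Arsb do not. Capitals mark TCACGTG, whose first base lies at -49 of Glb1 and -74 of Naglu counted from the start, and the Neu1 stretch has none. A match describes letters only.
Glb1, chr9:114400828-114401127, plus strand: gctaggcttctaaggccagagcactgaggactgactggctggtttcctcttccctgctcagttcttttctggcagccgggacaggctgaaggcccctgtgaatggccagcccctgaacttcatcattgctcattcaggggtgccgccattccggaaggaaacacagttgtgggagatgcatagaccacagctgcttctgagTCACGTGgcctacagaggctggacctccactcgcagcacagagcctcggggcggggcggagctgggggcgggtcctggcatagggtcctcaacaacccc
Naglu, chr11:101069844-101070143, plus strand: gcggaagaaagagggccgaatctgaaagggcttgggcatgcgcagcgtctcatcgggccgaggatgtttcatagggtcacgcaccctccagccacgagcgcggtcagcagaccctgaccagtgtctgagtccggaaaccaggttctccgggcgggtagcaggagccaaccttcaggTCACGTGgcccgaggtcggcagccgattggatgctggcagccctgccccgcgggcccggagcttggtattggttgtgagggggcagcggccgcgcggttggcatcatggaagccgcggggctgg
Neu1, chr17:34931003-34931302, plus strand: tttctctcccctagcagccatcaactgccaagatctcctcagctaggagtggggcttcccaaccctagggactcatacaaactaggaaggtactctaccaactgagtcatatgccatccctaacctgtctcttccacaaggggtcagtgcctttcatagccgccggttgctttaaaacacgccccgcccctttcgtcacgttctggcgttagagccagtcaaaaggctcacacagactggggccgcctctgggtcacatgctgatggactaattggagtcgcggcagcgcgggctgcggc

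Of the 60 arrays, 4 stood apart from their labelled tissue (Pearson r under 0.3 over 900 probe sets of other genes) and were left out, and the main results that rest on those groups are given with them too. The brain array BRN1 of WT animal 9099 had r = -0.27 to brain but 0.96 to intestine. The intestine array of the same animal had r = -0.27 to intestine but 0.94 to brain. The WT thymus arrays of N3740 and N3738 had r = 0.03 and 0.04 to thymus. This leaves 2 WT intestine animals and 1 WT thymus animal (N9700). The 56 retained arrays correlated at 0.53 or more with their own tissue. The lowest was the WT lymph node array of 9094, while the other lymph node arrays lay at 0.86 or more. The arrays labelled thymus carried little of the measured T-cell markers Il7r, Ccr7 and Ccr9, whose mean level lay between 3.68 and 4.33 against 5.38 to 8.95 in lymph node, while connective tissue markers lay between 9.79 and 10.4 there. The mean levels of the neural, intestinal epithelial, kidney tubule and testis germ cell lists were each highest in the labelled tissue. Of the 7 intestinal epithelial markers 5 were called higher in intestine, but also 1 each in brain, mammary gland and kidney. Of thyroid markers only Chga was measured (5.77 to 13.06 in thyroid), and of mammary markers only Muc1, at 5.14 to 7.02 in mammary gland and below its mean in kidney and testes. St6galnac2 itself read 8.75 and 8.65 in KO intestine against 8.77 and 8.74 in WT. B4galnt1 differed by -0.07 ± 0.10 (SE) between DKO and WT kidney. It read 5.47 to 5.93 in WT kidney, near the medians of whole arrays, so little signal could be lost there. In testes B4galnt1 differed by -0.32 ± 0.16 (means 6.98 in DKO and 7.30 in WT). B4galnt2 read 8.53, 3.74, 3.78, 8.21 and 4.39 in DKO mammary gland, against 3.93 and 8.09 in WT. The place of these probe sets relative to the deleted parts is not known, so KO and DKO stand below for what the labels say.

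The enzymes differed between tissues, and the kidney mean was the highest of the 8 tissues for Neu1, Glb1, Manba, Arsb and Galns. Their spread was mixed: highest minus lowest tissue mean lay at percentile 34.5 (Hexa) to 91.6 (Neu1) of all named genes. Each tissue was set against the average of the 3 tissues it shares a line with (limma, genotype as a term, KO or DKO and WT animals together), and a gene was called at an adjusted p under 0.05 with a log2 difference of at least 1. Of 72 gene and tissue pairs 18 were called, 8 higher and 10 lower, where 24.9% of all pairs of probe set and tissue were called, so the share over all tissues is that of the background. In the kidney comparison 6 of the 9 genes were called, all higher, where 11.9% of all 963 probe sets were called higher and 21.5% in either direction. In testes 5 were called lower (22.4% of all) and 1 higher (9.55%), with 32.0% of all in either direction. In thymus 2 were called lower (6.75% of all, 16.8% in either direction) and in thyroid 1 lower (13.6%, with 7.68% higher and 21.3% in either direction). In brain 1 was called higher (17.9%) and 1 lower (17.0%, and 34.9% in either direction), and in intestine 1 lower (18.1%, and 31.5% in either direction). In lymph node and mammary gland 0 of the 9 were called, against 25.1% and 16.1% of all (limma, 3 and 7 of the 9 at an unadjusted p under 0.05). Neu1 and Arsb were called in 4 tissues each, Naglu in 3, Manba and Aga in 2, Glb1, Galns and Asah1 in 1, and Hexa in none.

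**Figure D1:**
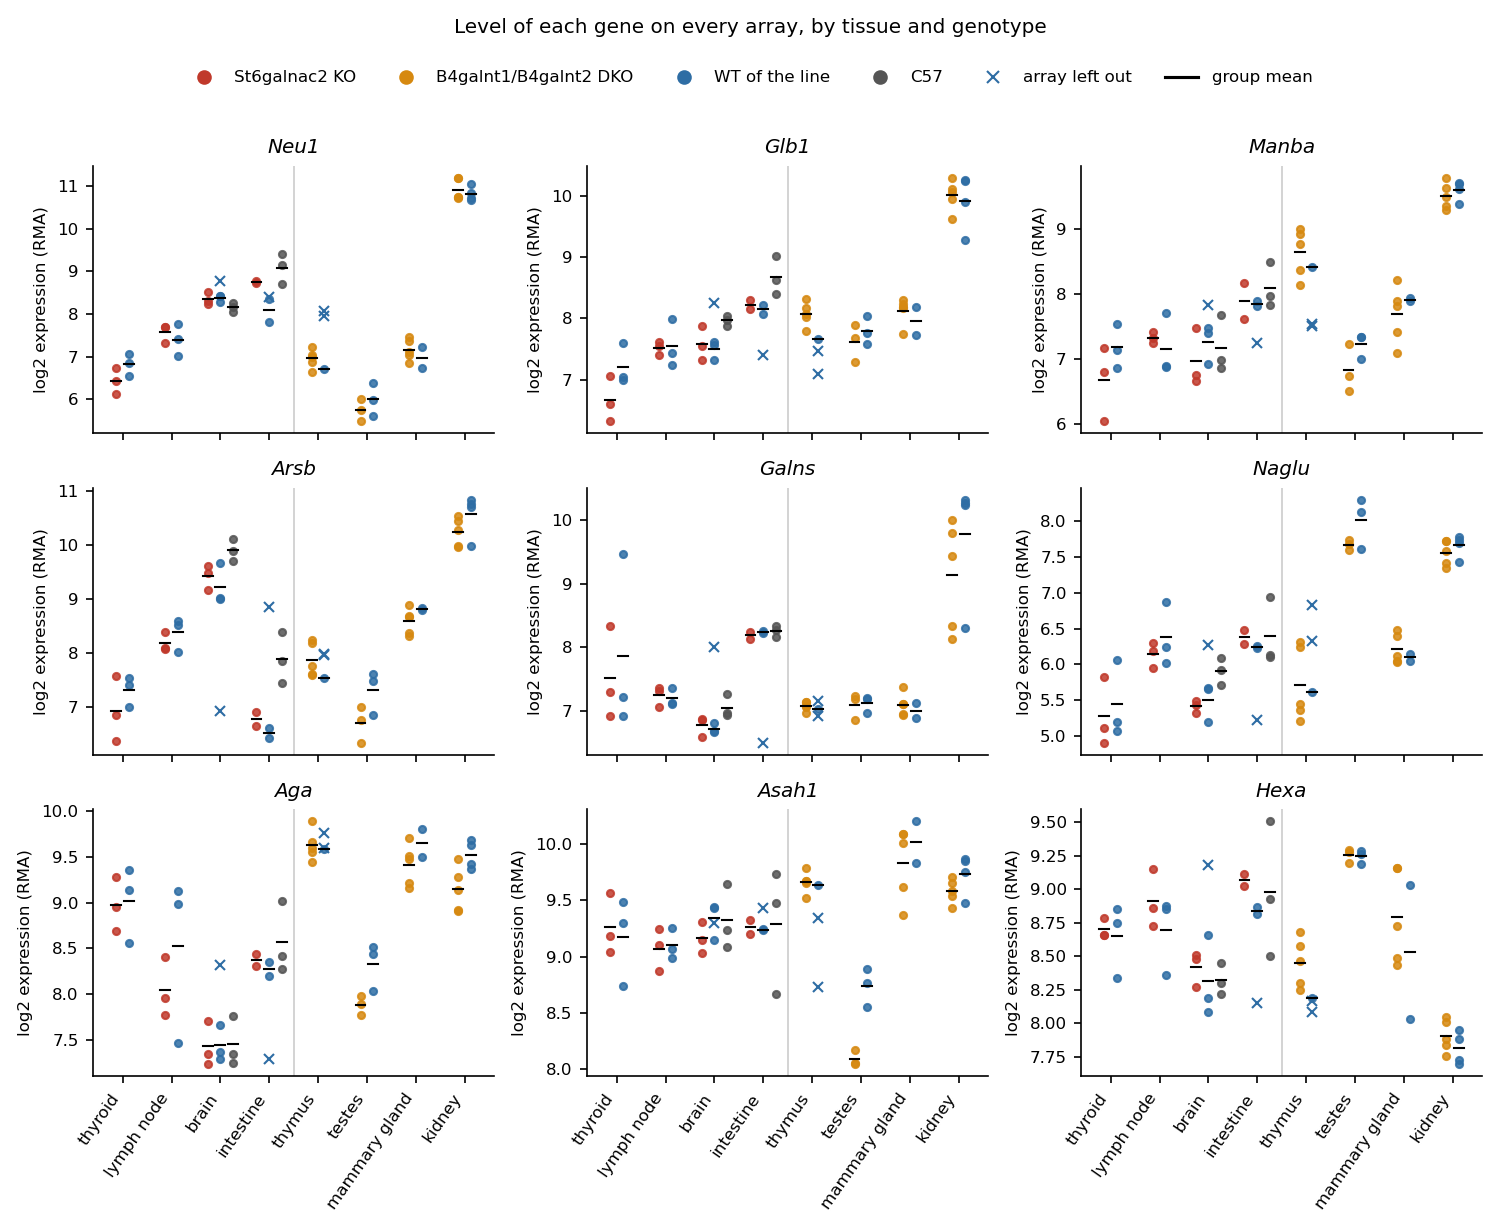
Log2 expression of the 9 genes on every array (y axis, scaled per gene) by tissue (x axis; St6galnac2 line left of the grey line, B4galnt1/B4galnt2 line right of it), with points for KO or DKO, WT and C57 animals, crosses for the 4 arrays left out and bars for group means. Kidney arrays of Neu1 lie between 10.7 and 11.2, above every other array of that gene.

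Neu1, the lysosomal sialidase that removes terminal sialic acid, had the widest spread of the 9. In kidney it read between 10.7 and 11.2 on 9 arrays (median 10.7), against 5.49 to 7.45 on the 19 arrays of the 3 other tissues of that line, so that the groups were far apart. The difference was 4.25 ± 0.10 (SE, adjusted p = 3.42e-23), a 19.0-fold higher signal. Neu1 was called lower in testes (-2.42 ± 0.12), in the arrays labelled thymus (-1.04 ± 0.12) and, in the other line, in thyroid (-1.47 ± 0.14, adjusted p = 2.44e-16, 2.14e-08 and 3.23e-08). The average that thymus was set against includes the high kidney. The thymus mean of 6.92 lay near that of mammary gland (7.11) and above that of testes (5.88), against 10.9 in kidney. With all 60 arrays the thymus difference was -0.75, short of the minimum. Over 8 tissues the highest and lowest tissue means of Neu1 lay 5.0 apart, at percentile 91.6 of the named genes, whose median is 1.89. The order ran from kidney through intestine, brain, lymph node, mammary gland, thymus and thyroid to testes, and the ranges of arrays overlapped between neighbours except for kidney and intestine and for brain and lymph node. The 2 lines share no tissue, and whether all arrays were normalized together is not given in the sources used here, so this order is a description.

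Glb1, the beta-galactosidase that forms a complex with the sialidase and cathepsin A, read 9.28 to 10.3 in kidney, against 7.30 to 8.32 in the other tissues of its line, with no overlap. The difference was 2.04 ± 0.11 (adjusted p = 3.16e-15). Its lowest tissue mean was in thyroid, at 6.94 ± 0.43 (SD, n = 6), and next came lymph node at 7.54 ± 0.25 (n = 6), with overlapping arrays. Hexa, which encodes the alpha subunit of beta-hexosaminidase A, went the other way. It read 7.70 to 8.05 in kidney, where its mean was the lowest of the 8 tissues, and 9.19 to 9.29 in testes, above every other array of that line. Both differences passed the adjusted p and missed the minimum size, at -0.91 ± 0.10 in kidney and 0.95 ± 0.11 in testes (adjusted p = 2.86e-09 and 1.35e-08). Manba, the beta-mannosidase that splits the last mannose from N-glycan cores, rose in kidney (1.74 ± 0.12) and fell in testes (-1.64 ± 0.14, adjusted p = 6.89e-13 and 2.67e-11). Its kidney arrays (9.29 to 9.78) lay above all others of the line, of which the highest was 9.0, in thymus.

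Naglu removes N-acetylglucosamine from heparan sulfate. It was highest in testes, at 7.60 to 8.30, followed by kidney at 7.35 to 7.78, and these ranges overlap. It was called higher in both, by 1.33 ± 0.13 in testes and 1.02 ± 0.11 in kidney (adjusted p = 5.91e-10 and 9.42e-09), and lower in thymus (-1.49 ± 0.13, adjusted p = 2.16e-10). The kidney value lies so near the minimum of 1 that it dropped to 0.94 with all 60 arrays and to between 0.92 and 0.99 under 4 other alternatives (a second quantile normalization and leaving out N5891, N5894 or N9700). In thymus the difference was -1.28 with all arrays.

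Among the sulfatases, Arsb, which acts on N-acetylgalactosamine sulfate of dermatan and chondroitin sulfate, rose in kidney and, in the other line, in brain. Its kidney arrays read 9.96 to 10.8, against 6.35 to 8.90 in the other tissues of the line (difference 2.52 ± 0.13, adjusted p = 7.02e-16). Brain was higher by 1.97 ± 0.16, and intestine was lower (-1.59 ± 0.18, adjusted p = 6.43e-10 and 2.09e-07). With all 60 arrays these were 1.65 and -1.1 and were still called. In testes Arsb fell (-2.0 ± 0.15, adjusted p = 1.44e-12). Galns, the sulfatase of keratan sulfate and chondroitin sulfate, was called in kidney alone, at 2.31 ± 0.21 (adjusted p = 1.91e-10). Its kidney arrays spread from 8.12 to 10.3, while the 19 arrays of the other 3 tissues spread from 6.87 to 7.38. That wide spread in kidney separates by sex, as described further on.

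The remaining genes act at the protein and lipid ends of the substrates. Aga cuts the bond between asparagine and N-acetylglucosamine of glycoproteins. It fell in testes (-1.43 ± 0.10) and in brain (-1.1 ± 0.19, adjusted p = 2.93e-13 and 2.91e-05), and testes arrays (7.77 to 8.51) lay below all others of the line. In brain the difference was -0.95 with all 60 arrays and no longer reached the minimum. Asah1 is acid ceramidase, neither a glycosidase nor a sulfatase, which frees fatty acid and sphingosine. It was called in testes alone, at -1.37 ± 0.10 (adjusted p = 1.44e-12), with testes arrays at 8.05 to 8.89 and all others of the line at 9.37 or above. A second quantile normalization gave -0.90 for Aga and -0.88 for Asah1 in testes, both under the minimum. In a whole tissue, fewer cells of a type and less RNA per cell cannot be told apart, which holds for every difference given here. Macrophages are rich in lysosomes: 3 of 7 macrophage markers were called lower in kidney and 3 of 7 in testes, where 9.55% and 22.4% of all probe sets were. The mean level of these markers lay at 5.10 to 5.32 in kidney and 5.20 to 5.55 in testes, against 6.89 to 8.01 in mammary gland. Of 6 connective tissue markers 3 were called lower in kidney (mean level 7.47 to 8.34) and 5 in testes (6.65 to 6.92), against levels of 8.61 to 10.05 in mammary gland. The part of these cell types in the enzyme values was not tested.

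**Figure D2:**
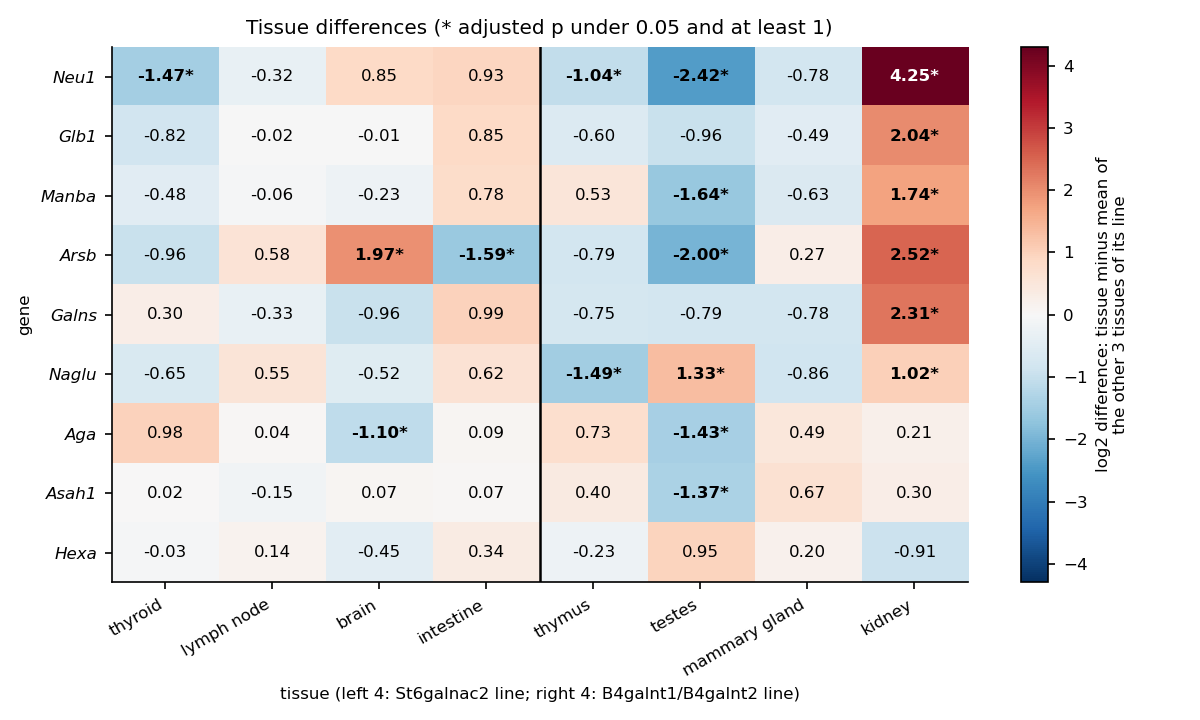
Log2 difference of each tissue (columns) from the average of the 3 tissues it shares a line with for the 9 genes (rows), coloured from blue (lower) to red (higher), with an asterisk at the 18 called pairs. The kidney column holds 6 called rises, the strongest for Neu1 at 4.25, and the testes column 5 called falls.

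Other genes of lysosomal breakdown were measured for 16 of 29 listed and genes of lysosomal sorting and membrane for 6 of 12. In kidney 3 of the 16 were called higher and 1 lower, where 11.9% and 9.55% of all probe sets were. The median of the 16 was 0.24, against -0.13 over all probe sets and 1.74 over the 9 enzymes. Galc, the galactosylceramidase, rose by 2.45 ± 0.10, Psap, the precursor of the saposin activators, by 1.07 ± 0.10 and Smpd1, acid sphingomyelinase, by 1.05 ± 0.09, while Arsa, the sulfatase of sulfatides, fell (-1.69 ± 0.12). In testes 1 of the 16 was called higher and 3 lower, where 9.55% and 22.4% of all were (median -0.37, and -1.37 over the 9 enzymes). Arsa rose there by 3.07 ± 0.13 and Smpd1 fell (-2.21 ± 0.10). Of the 6 sorting and membrane genes 3 were called higher in kidney, among them the lysosomal membrane protein Lamp2 at 2.39 ± 0.11. Lamp2 fell in testes (-2.47 ± 0.12), as did Igf2r, a mannose 6-phosphate receptor (-1.92 ± 0.14).

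Levels of the enzymes were also compared with each other across the 56 retained arrays, which share tissues and animals, so that the coefficients describe these arrays and carry no test. The closest pair was Glb1 and Manba (Pearson r = 0.86 over 56 arrays and 0.90 over 8 tissue means), followed by Neu1 and Glb1 (0.83 and 0.84). Hexa ran against Arsb (-0.71 and -0.84) and Neu1 (-0.65 and -0.73). Among all named genes the nearest to Neu1 were Hs6st1 (0.92) and Slc35e3 (0.89), to Glb1 Sult1c2 (0.87) and Gpc4 (0.86), to Manba Lamp2 (0.87) and Glb1 (0.86), and to Arsb Psap (0.90) and Fut9 (0.87). Galns was nearest to Esm1 (0.89) and Khk (0.84), Naglu to Cks2 (0.86) and St6galnac2 (0.83), and Aga to Col14a1 (0.86) and Angptl2 (0.85). Asah1 was nearest to Vegfa (0.81) and Ssr3 (0.78). Hexa had no close match, with Cks1b at 0.67 and Tmsb10 at 0.66.

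The contrast of brain with intestine could be set beside that of brain with small intestine in C57 mice outside the line. The arrays of the line are labelled intestine without a segment, so the tissues may not match, and B4galnt2 read 7.29 and 7.40 in KO and 7.82 and 7.39 in WT intestine of the line, against 11.3 to 12.4 in C57 small intestine. In the St6galnac2 line Arsb was higher in brain by 2.67 ± 0.21 and Galns lower (-1.46 ± 0.34, adjusted p = 6.39e-10 and 0.0008), the 2 called of 9, where 37.7% of all probe sets were called, 20.6% higher and 17.1% lower. With all 60 arrays these were 2.07 and -1.01. In C57 mice 3 of 9 were called, where 33.9% of all were: Arsb at 2.0 ± 0.26, Galns at -1.20 ± 0.15 and Aga at -1.12 ± 0.25 (adjusted p = 0.00093, 0.000871 and 0.0105). C57 Arsb read 10.1, 9.70 and 9.89 in brain, against 7.45, 7.85 and 8.39 in small intestine. Aga missed the minimum in the line (-0.89 ± 0.26), and in C57 it lost its call without GDWTM3 (-0.79) or without GDWTF1 (adjusted p = 0.0973). Neu1 was about level in the line at -0.06 ± 0.19 and lower in C57 brain at -0.93 ± 0.21. The test of that gap itself, C57 minus line, gave -0.87 ± 0.26 and an adjusted p of 0.188, and for Arsb -0.67 ± 0.29 and 0.361, so no gene of the 9 was shown to differ between them, where 1.14% of all probe sets were.

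**Figure D3:**
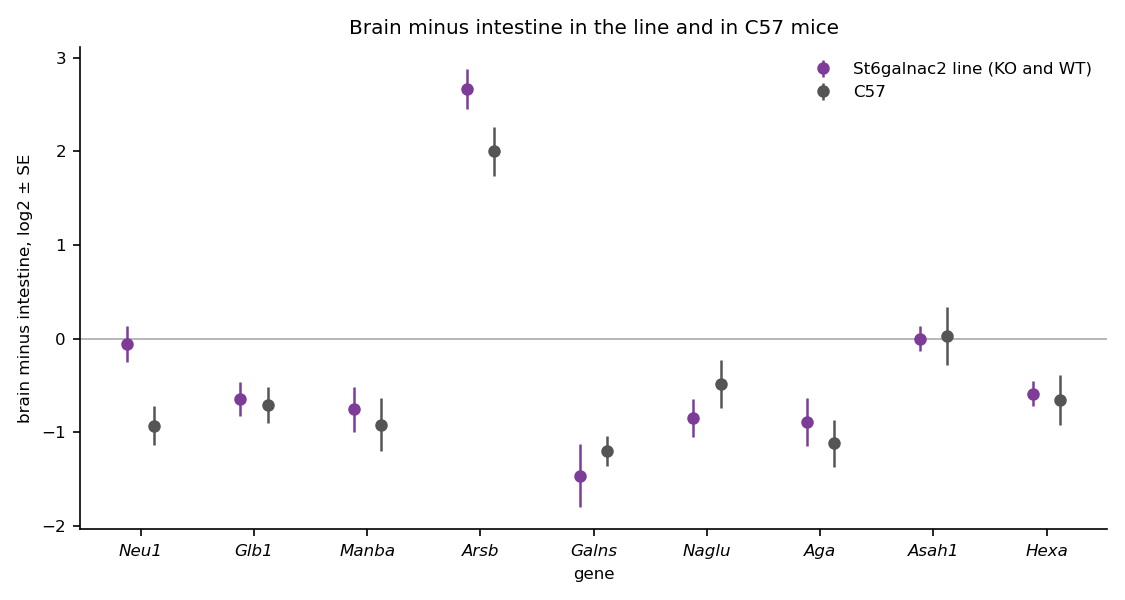
Brain minus intestine (y axis, log2, bars are SE) for the 9 genes in the St6galnac2 line, KO and WT together, and in C57 mice. Arsb lies above 0 in both, at 2.67 and 2.0, and Galns below 0 in both, at -1.46 and -1.20.

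Against C57, no enzyme was called in either genotype of the line in either tissue (0 of 36 pairs, limma, 11 at an unadjusted p under 0.05, and 1.38% of all pairs called). The line read lower than C57 over all probe sets, with medians between -0.15 and -0.28, and differences should be read against that shift. Arsb was the furthest. In intestine it read 6.65 and 6.92 in KO and 6.44 and 6.63 in WT of the line, against 7.45, 7.85 and 8.39 in C57, so that the 4 retained arrays of the line lay below the C57 arrays. The left-out WT intestine array of 9099, with r = 0.94 to brain and -0.27 to intestine, read 8.86, above all 3 C57 intestine arrays. The differences were -1.12 ± 0.28 in KO and -1.36 ± 0.28 in WT (adjusted p = 0.126 and 0.0673), and both share the C57 arrays. With all 60 arrays, the brain-like one of 9099 among them, the WT difference was -0.59 ± 0.66 (limma, adjusted p = 0.663). Neu1 differed by -1.0 ± 0.26 in WT intestine and -0.34 ± 0.26 in KO intestine (adjusted p = 0.0891 and 0.461), or -0.90 in WT with all arrays. Markers of other cell types were lower in the line as well. Macrophage markers (7 genes) had a mean level of 5.50 to 5.59 in KO and 5.61 to 5.69 in WT, against 5.94 to 6.47 in C57, and B-cell markers (3 genes) 5.41 to 5.42 in KO and 5.31 to 5.47 in WT, against 5.99 to 6.59 in C57, both without overlap. The connective tissue markers lay at 7.24 to 7.74 in KO and 7.33 to 7.43 in WT, against 7.71 to 8.08 in C57, with overlap. None of these markers was called, and their part in the enzyme values was not tested. In brain, Glb1 differed by -0.38 ± 0.15 in KO and -0.47 ± 0.15 in WT, Naglu by -0.49 ± 0.15 and -0.40 ± 0.15, Galns by -0.28 ± 0.12 and -0.33 ± 0.12, and Arsb by -0.48 ± 0.21 and -0.67 ± 0.21, none called. With all arrays the WT brain values were -0.31 for Glb1, -0.22 for Naglu, -0.11 for Galns and -1.01 for Arsb (adjusted p = 0.253 for Arsb). In WT intestine Glb1 differed by -0.53 ± 0.21, or -0.78 with all arrays. Without C57 animal GDWTF1, Arsb and Neu1 in WT intestine were called (adjusted p = 0.0412 and 0.0476, with 6.96% of all probe sets), and without WT animal 9094 Arsb in WT brain (0.0362, with 4.05%). Over the 13 alternatives of each the adjusted p ran to 0.663, 0.441 and 0.283.

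Each tissue was also compared between knockout and wild type, with sex as a term outside testes, to ask whether the enzymes' levels differ by genotype. St6galnac2 encodes a sialyltransferase, and B4galnt1 and B4galnt2 encode N-acetylgalactosaminyltransferases. In limma 0 of the 72 gene and tissue pairs passed (8 had an unadjusted p below 0.05), against 0.0519% of all pairs. Differences ran from -0.65 to 0.67, with a median SE of 0.17 and SEs between 0.07 and 0.51. Simulated 2-fold changes were found in 81% of cases for the kidney design and 78% for the brain design, and 4-fold changes in 99% of both. These 2 designs have the smallest median SEs (0.11 and 0.12). Designs with larger ones, such as lymph node (0.23), thymus (0.22) and thyroid (0.22), were not simulated. The simulation changed 200 of the 963 probe sets, with 1 noise SD per probe set pooled over all groups. In the real fits 1 of 963 was called in kidney and 0 in brain. With fewer changed probe sets the adjusted threshold is stricter, so the simulated shares do not carry over to the 0 of 72 pairs.

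The nearest to a call was Asah1 in testes. It read 8.17, 8.05 and 8.05 in DKO testes, against 8.89, 8.77 and 8.55 in WT testes, so that the groups did not overlap. The difference was -0.65 ± 0.13 (adjusted p = 0.114). Aga read 7.97, 7.77 and 7.89 in DKO testes against 8.51, 8.44 and 8.03 in WT testes (-0.45 ± 0.15, adjusted p = 0.29), again without overlap. Arsb read 6.35, 6.77 and 7.0 in DKO testes and 7.61, 7.49 and 6.87 in WT testes, where the groups overlapped (-0.62 ± 0.22, adjusted p = 0.309). The WT animal N9700 was the lowest WT array for all 3 of these genes. Without it, Asah1 (-0.74), Arsb (-0.85), Aga (-0.60) and Naglu (-0.54) were called, with adjusted p of 0.00318, 0.00998, 0.00916 and 0.0114, on a background of 205 called probe sets (21.3%, against 0.312% with N9700). Across the 23 alternatives of each the adjusted p ran to 0.546 for Asah1, 0.843 for Arsb and 0.843 for Aga. The 23 include reruns that repeat the main fit, such as those leaving out an animal without a testes array. The shift of all probe sets in this comparison was -0.11. Igf2r fell in DKO testes by 0.83 ± 0.12 (adjusted p = 0.0264), the only called gene of the sorting list in any knockout comparison.

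In kidney, Aga differed by -0.41 ± 0.12 and Galns by -0.39 ± 0.13 between DKO and WT (adjusted p = 0.25 and 0.279). The mean level of the 2 kidney tubule markers lay at 8.40 to 10.1 in DKO and 8.22 to 8.43 in WT. Among them Havcr1, a tubule gene known to rise with injury, differed by 1.80 ± 0.54 (limma, adjusted p = 0.25). The median difference of the 2 markers was 0.87, so Havcr1 makes up the higher mean level, which does not stand for both. Neither was called. The part of Havcr1 in the enzyme values was not tested. The males alone, 3 of each genotype, did not overlap for either gene. Galns read 9.43, 9.79 and 10 in DKO males, against 10.3, 10.2 and 10.3 in WT males (-0.53 ± 0.14, adjusted p = 0.146). Aga read 8.92, 9.14 and 8.91 in DKO males, against 9.69, 9.63 and 9.37 in WT males (-0.57 ± 0.12, adjusted p = 0.141). Arsb differed by -0.45 ± 0.15 in males (adjusted p = 0.188). The split by sex was chosen after the values were seen, and 0 of 963 probe sets were called in it (limma, 162 at an unadjusted p under 0.05). In females Galns read 8.12 and 8.33 in DKO and 8.30 in WT, and Aga read 9.47 and 9.28 in DKO and 9.42 in WT. The test of a sex difference in the DKO effect gave -0.46 ± 0.25 for Galns, -0.53 ± 0.21 for Aga, -0.60 ± 0.27 for Arsb and -0.46 ± 0.20 for Naglu (adjusted p = 0.694 for each).

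In the other line, KO thyroid was lower than WT thyroid for Glb1 (-0.54 ± 0.16) and Manba (-0.51 ± 0.22), with adjusted p of 0.751 and 0.989. Glb1 read 7.06, 6.33 and 6.61 in KO thyroid and 7.60, 6.99 and 7.04 in WT thyroid, and the groups overlapped by the KO female. The C-cell marker Chga read 12.8, 7.79 and 5.77 in KO thyroid, against 13.02, 13.1 and 12.7 in WT thyroid, and its part in these differences was not tested. Neu1 in KO intestine read 8.77 and 8.74, against 7.83 and 8.35 in WT intestine (0.67 ± 0.19, adjusted p = 0.566), or 0.61 with all 60 arrays. In lymph node, brain, thymus and mammary gland the smallest p belonged to Hexa (0.22 ± 0.19), Asah1 (-0.18 ± 0.11), Glb1 (0.35 ± 0.22) and Aga (-0.21 ± 0.15), with adjusted p of 0.801, 0.887, 0.989 and 0.688. The WT lymph node group holds the array of 9094, with r = 0.53 to its own tissue. The thymus difference rests on the single WT array of N9700, which is assumed to vary like the DKO arrays. With N3740 and N3738 included it was 0.60 ± 0.20 for Glb1 (adjusted p = 0.233).

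**Figure D4:**
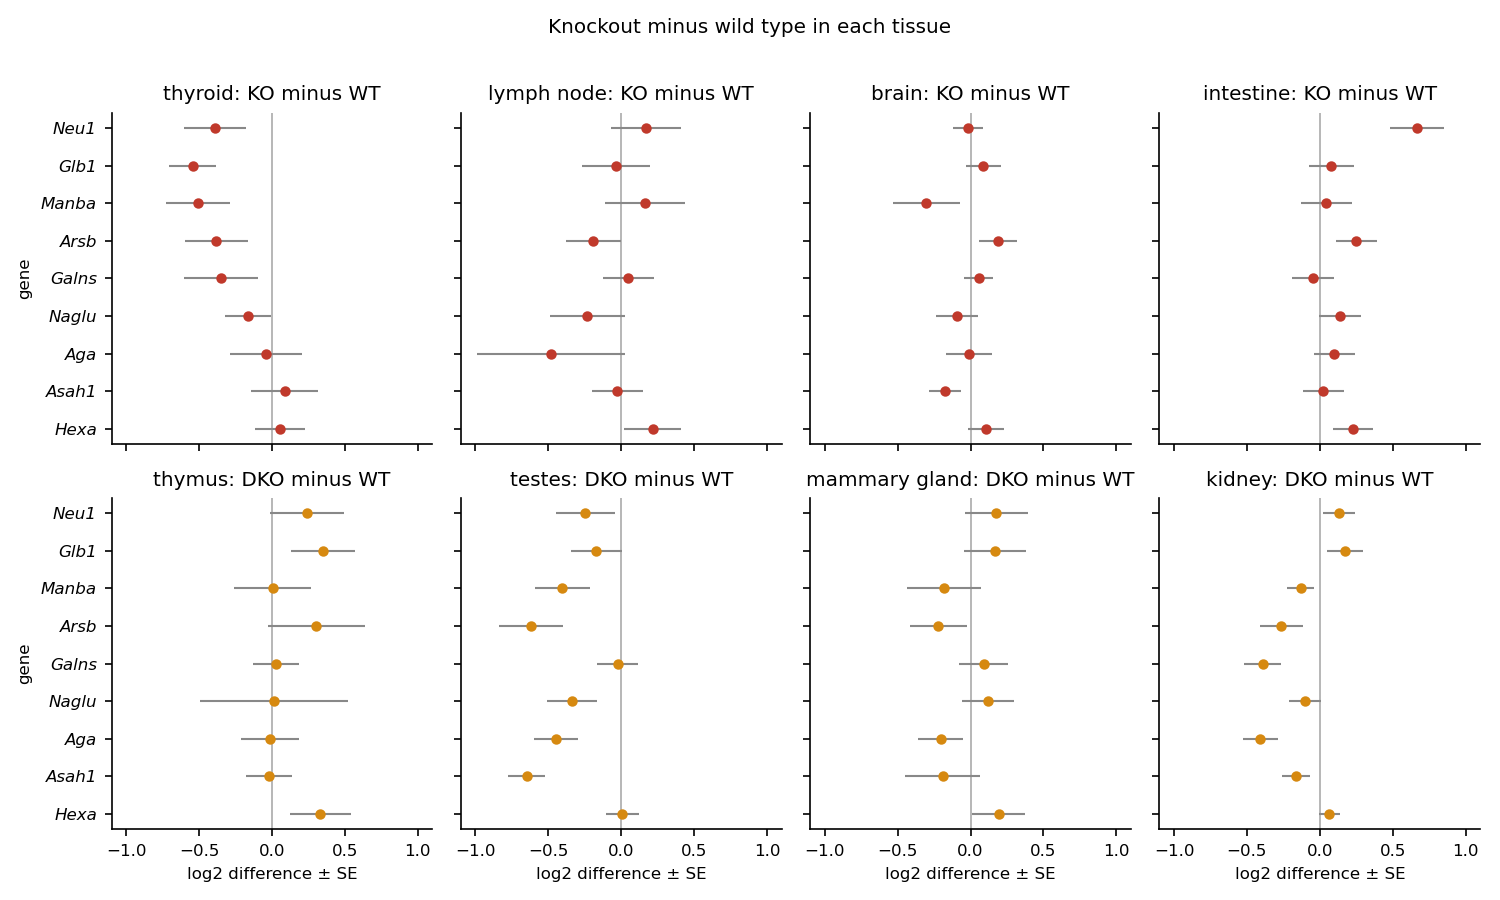
KO or DKO minus WT (x axis, log2, bars are SE) for the 9 genes in each of the 8 tissues. All points lie between -0.65 and 0.67, and the points furthest from 0 are Neu1 in intestine and Asah1 in testes.

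Averaged over the 4 tissues of a line, with the animal as a random block, no enzyme was called and 0 of 963 probe sets were in either line (limma, 24 at an unadjusted p under 0.05 in the St6galnac2 line and 126 in the other). The means lay between -0.15 and 0.15 in the St6galnac2 line. In the B4galnt1/B4galnt2 line they lay between -0.25 and 0.16, with Aga at -0.25 ± 0.09 and Asah1 at -0.24 ± 0.09 (adjusted p = 0.248 for both). The F test for a knockout effect that differs between tissues gave its lowest p for Neu1 in the St6galnac2 line (F = 3.86, adjusted p = 0.992).

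Sex set apart a sulfatase in kidney. Galns read between 9.43 and 10.3 in 6 males (median 10.1), against 8.12, 8.30 and 8.33 in 3 females. Every male was above every female, in both genotypes. Male minus female was 1.69 ± 0.13, a 3.22-fold higher level in males (limma, adjusted p = 2.64e-05). Glb1 was also called, at 0.55 ± 0.13 (adjusted p = 0.0235), with males at 9.89 to 10.3 and females at 9.28, 9.63 and 9.95, which overlap. These are 2 of 9 genes, against 2.6% of all probe sets called higher in males and 9.03% in either direction. Galns stayed between 1.51 and 1.81 over 12 alternatives. Glb1 ran from 0.36 to 0.69 and lost its call without N5891 (adjusted p = 0.0966), N5894 (0.0515) or N9686, the only WT female (0.198). Arsb, Manba and Hexa had an unadjusted p under 0.05 with differences of 0.41 ± 0.16, -0.25 ± 0.10 and -0.20 ± 0.07 (adjusted p = 0.121, 0.124 and 0.127). Arsb was called without N5893 (0.54, adjusted p = 0.00973, with 11.5% of all probe sets), and ran to an adjusted p of 0.685 over the 12 alternatives.

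Of the other lysosomal degradation genes, Psap was called higher in male kidney (0.30 ± 0.07, limma, adjusted p = 0.0272), 1 of 16. The shares over all probe sets were 2.6% higher and 6.44% lower in males. Of the sorting and membrane genes, Igf2r was called higher (0.35 ± 0.08) and the channel gene Mcoln2 lower (-0.89 ± 0.14). Of the 6 connective tissue markers 5 were called lower in males, and their mean level lay between 7.47 and 7.84 in males and between 8.06 and 8.34 in females. Of 7 neural markers 1 was called, Ugt8a, higher in males by 2.95 ± 0.16. Their part in the enzyme values was not tested. In mammary gland, none of the 9 was called, where 0.312% of all were. Hexa came nearest, with 9.16, 9.16, 8.73 and 9.03 in males against 8.44, 8.49 and 8.04 in females and no overlap (0.68 ± 0.17, adjusted p = 0.216).

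Thyroid gave the opposite sign for Galns. The sex term of the thyroid comparison, examined after the values were seen, rests on 2 females, 1 per genotype. Galns read 7.29 and 6.93 in KO males and 7.21 and 6.92 in WT males, against 8.33 in the KO female and 9.47 in the WT female. Male minus female was -1.81 ± 0.27 (adjusted p = 0.00697, 4.36% of probe sets called). Naglu went the same way, at 4.91 to 5.20 in males and 5.82 and 6.06 in females (-0.87 ± 0.17, adjusted p = 0.0219). Glb1 (-0.58 ± 0.17), Arsb (-0.65 ± 0.23) and Manba (-0.64 ± 0.23) were also lower in males at an unadjusted p under 0.05 and missed the adjusted threshold (adjusted p = 0.106, 0.204 and 0.207). Chga read 7.79 and 5.77 in KO males and 13.1 and 12.7 in WT males, against 12.8 in the KO female and 13.02 in the WT female, and its part in the sex difference was not tested. The difference between the thyroid and kidney sex effects was itself tested, in a fit of both tissues, and gave -3.50 ± 0.30 for Galns (adjusted p = 3.93e-06), with 10.6% of all probe sets called. In brain, lymph node, intestine and thymus, 0 of 963 probe sets were called for sex (limma, 119, 12, 43 and 42 at an unadjusted p under 0.05). Galns differed there by -0.13, -0.02, 0.03 and -0.05. Arsb in brain (-0.48 ± 0.14) and Manba in thymus (-0.53 ± 0.21) had an unadjusted p under 0.05, with adjusted p of 0.359 and 0.998.

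**Figure D5:**
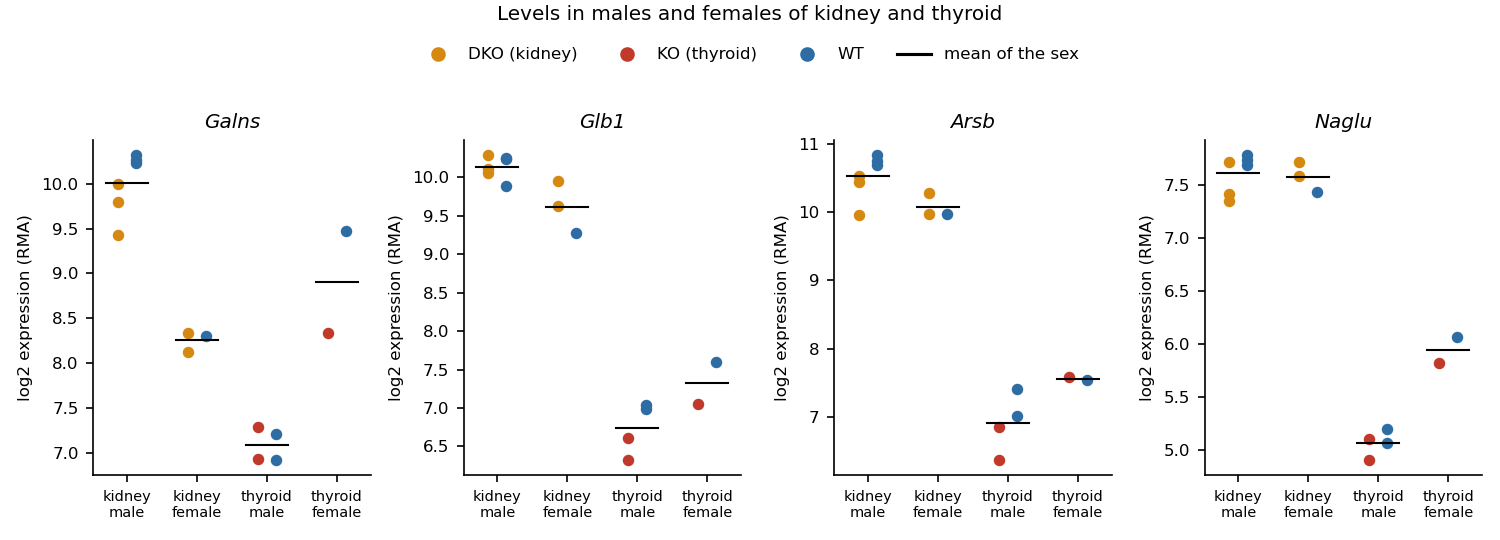
Log2 expression of Galns, Glb1, Arsb and Naglu (y axes, scaled per gene) in males and females of kidney and thyroid, with points for DKO or KO and WT animals and a bar for the mean of each sex. Galns lies at 9.43 to 10.3 in kidney males and 8.12 to 8.33 in kidney females, and at 6.92 to 7.29 in thyroid males and 8.33 and 9.47 in thyroid females.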

How the data were processed

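The authors deposited log2 expression values per probe set made with RMA, per the submitters' processing notes. The RMA version, and whether all arrays were normalized together, are not given in the sources used here. RNA was extracted with Trizol and labelled with biotin, per the labels' protocols. The 1246 probe sets held no missing value, ranged over 2.11 to 14.1, with medians per array of 5.29 to 5.76. No further normalization was applied. Gene names came from RefSeq identifiers: 963 probe sets had a name, and p-values were adjusted over these by Benjamini-Hochberg, while 283 without one entered an alternative only. The number of arrays limits the precision.

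Tests were linear models in limma 3.58.1 (R 4.3.3), two-sided, with arrays of 1 animal and tissue treated as that animal. Sex is unknown for C57 animals and was not a term in their comparisons. The 4 arrays with an own-tissue correlation under 0.3 were left out, with all 60 as an alternative. The members, gene lists and this limit were chosen with earlier results of these data known. All 9 genes are named. In knockout, C57 and sex comparisons, values are given for called genes and those at an unadjusted p under 0.05, otherwise for the gene with the smallest p. Of other lysosomal genes at most 4 called per comparison were eligible for naming. The 2 genes with the highest correlation to each member were named. Tissues of 1 animal form a real pairing. The deviations of same-animal arrays from their group means correlated at a median of -0.00276 in the St6galnac2 line and 0.0571 in the other. The procedure was tested on simulated data with 200 of the 963 probe sets changed. There 2-fold tissue changes in kidney passed the adjusted p under 0.05 in 99% of cases. That count left out the minimum log2 difference of 1, which the tissue calls also require. A 2-fold change lies at that minimum, so the 99% does not describe the tissue calls. Within 1 tissue, p-values measure the spread between animals. The tissue and brain minus intestine fits took the tissues of 1 animal as independent. Their p-values rest on the spread of arrays around the tissue and genotype terms. The tissue fits were also run with the animal as a block. Alternatives are given in the closing section.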

Additional observations from a re-analysis of the deposited data

Results flagged for a closer look

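Within groups of 4 or more animals, 3 of 36 gene and group combinations held a value far from the rest (Dixon's test at 95%, which flags about 1 in 20 groups by chance). In WT kidney, animal N9686 was the lowest for Galns at 8.30 and for Arsb at 9.98, against 10.2 to 10.3 and 10.7 to 10.8 in the 3 other WT animals. N9686 is the only female among them, and the DKO females read 8.12 and 8.33 for Galns and 9.98 and 10.3 for Arsb. For Arsb the lowest kidney array was a DKO male, N5893 at 9.96, and its sex difference was not called (adjusted p = 0.121). In DKO mammary gland, animal N5894 was the lowest for Glb1 at 7.75, against 8.18 to 8.30 in the 4 others.

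The sex effect (male minus female) differed between thyroid and kidney for 4 of the 9 genes in a fit of both tissues, a comparison added after the values were seen (limma, 10.6% of all probe sets called). Thyroid minus kidney was -3.50 ± 0.30 for Galns, -1.14 ± 0.20 for Glb1, -1.07 ± 0.28 for Arsb and -0.89 ± 0.18 for Naglu (adjusted p = 3.93e-06, 0.00255, 0.0282 and 0.00579). The 2 tissues come from different lines and the thyroid holds 2 females, so line and tissue cannot be told apart here.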

How the results depend on the processing

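Of the 72 tissue pairs 18 were called as described, 54 with no minimum difference, 17 with all 60 arrays, 20 with wild-type animals only, with sex as a term or after a second quantile normalization, 22 with arrays centred on their medians, 19 with the animal as a replicate block, and 17 to 21 with each animal left out. Knockout against wild type gave 0 called pairs under 8 alternatives, among them 1 fit per line with the animal as a replicate block (0), and 0 to 4 with each animal left out, the 4 being in testes without N9700. Without N9700 the thymus comparison could not be fitted, and the intestine comparison, with its sex term, not without 9093, 9094, 9361 or 9362. Means over tissues gave 0 under every alternative run, also without the replicate block (0), and the B4galnt1/B4galnt2 line could not be fitted there without N9700. Against C57 the count was 0, and 0 to 2 with each animal left out (1 without 9094, 2 without GDWTF1). C57 brain against small intestine gave 3 called genes, 3 with the paired fit (replicate block), and 2 to 4 with each animal left out. The sex difference gave 2, 3 after a second quantile normalization (Manba added), and 1 to 3 with each animal left out (1 without N5891, N5894 or N9686, 3 without N5893). For the 55 single-gene results that the naming rule picks, 1018 values under alternatives were computed: 996 kept direction and side of the threshold, 14 lost a call, 8 gained one and 0 changed direction. Many of the 1018 left out an animal with no array in the comparison, such as one of the other line, and repeat the main value. The 996 therefore include values that could not move. Outside the 55 results, Naglu in testes gained a call without N9700. With all 60 arrays, 16 of 99 gene and comparison pairs in brain, intestine and thymus changed direction, none called either way, among them Neu1 and Naglu in DKO against WT thymus (-0.62 and -0.63, against 0.24 and 0.01 without the 4 arrays) and Arsb and Galns in KO against WT intestine (-0.38 and 0.45, against 0.25 and -0.05). Each gene has 1 probe set, so an alternative with other probe sets of a gene was not run. Groups of 1 to 5 animals set the precision, and for dim genes the array background does.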
